A study of Mus musculus with 8 samples.

Results

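NeuroD2, a basic helix-loop-helix (bHLH) transcription factor of the neuronal lineage, was delivered by lentivirus to mouse P19 cells, and 1 library of that culture was set against 1 library of P19 cells given a GFP lentivirus. These are 2 of the 8 libraries of a series that asked how the binding sites of MyoD and NeuroD2 relate to the lineage each factor drives. P19 is an embryonal carcinoma line that resembles early embryonic cells and can form neurons or muscle in culture. Both cultures were infected in the presence of polybrene and later moved to Neurobasal medium with B27 supplement and glutamine, a medium made for neurons, so the GFP culture also went through the neuronal medium. Neither label gives a multiplicity of infection (MOI), and the promoter that drives each transgene is not given in the sources used here. The other 6 libraries carried MyoD, a chimera of MyoD with the bHLH domain of NeuroD2, the chimera at MOI 100, the mutants of the chimera labelled WC and WCS, and WCS at MOI 100. They serve here only to show where the NeuroD2 and GFP levels lie. Every group had 1 library, so no test of groups was possible, and each difference is a difference between 2 libraries.

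bHLH factors of the Neurod, Neurog and Nhlh families act in a cascade during neuron formation, in which an early factor turns on later ones and then the genes of the neuronal cytoskeleton, synapse and excitable membrane. They bind DNA as dimers with E-proteins at E-boxes, which read CANNTG, and Id proteins block them by binding E-proteins. Notch signalling through Hes and Hey repressors holds neighbouring cells back from becoming neurons.

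The NeuroD2 library held 27604056 counts and the GFP library 43984066. Levels are given as CPM, counts scaled to one common library size, and a floor of 3 counts corresponds to 0.105 CPM in NeuroD2 and 0.073 CPM in GFP. Of 37558 genes in the table, 15547 reached 1 CPM in at least 1 of the 8 libraries and are called measured. In what follows, a gene was called when its levels, each with 0.5 CPM added, differed 4-fold or more and the higher one reached 5 CPM. Ratios are ratios of CPM, and the range in brackets is an exact 95% interval for the counting error of the 2 counts alone. PCR reads are not independent molecules, and such an interval says nothing of the spread between cultures.

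A difference between libraries that does not follow the factor delivered also separates the compared pair. Lars2, a mitochondrial leucyl-tRNA synthetase, stood at 1720 CPM in GFP, 2930 in MyoD, 3070 in WC and 2760 in WCS, but at 384 CPM in NeuroD2, 424 in the chimera, 223 in the chimera at MOI 100 and 337 in WCS at MOI 100. This gene was named after its values were seen, the labels do not say which library was extracted by which of the RNeasy and Trizol methods, and the part of this difference in the results below was not tested.

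By the 4-fold rule 680 genes were higher in NeuroD2, 4.37% of the measured genes, and 249 were lower, or 1.60%. The median log2 ratio of all measured genes was 0.03, with the 5th and 95th percentiles at -1.38 and 2.07. With the same 0.5 CPM added to each level, 163 of the higher genes and 13 of the lower passed 16-fold, and 22 and 0 passed 64-fold. On that scale the higher side reached further. Ratios of CPM without the addition, given below for single genes, can be larger on either side. Of the genes called higher, 243 stood under 1 CPM in GFP, 6 of them with no count, while 204 already stood at 5 CPM or more. Genes called higher took 0.43% of the GFP counts and 4.68% of the NeuroD2 counts. Genes called lower took 1.94% of the GFP counts and 0.345% of the NeuroD2 counts, and none of them had a count of 0 in NeuroD2. Just inside the threshold lay Thsd7a, at 145 CPM in NeuroD2 and 35.9 in GFP, and Cald1, at 183 and 734. Just outside lay Tmod2, at 97.5 and 24.1 CPM, and Mdfi, at 5.17 and 22.1.

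**Figure D1:**
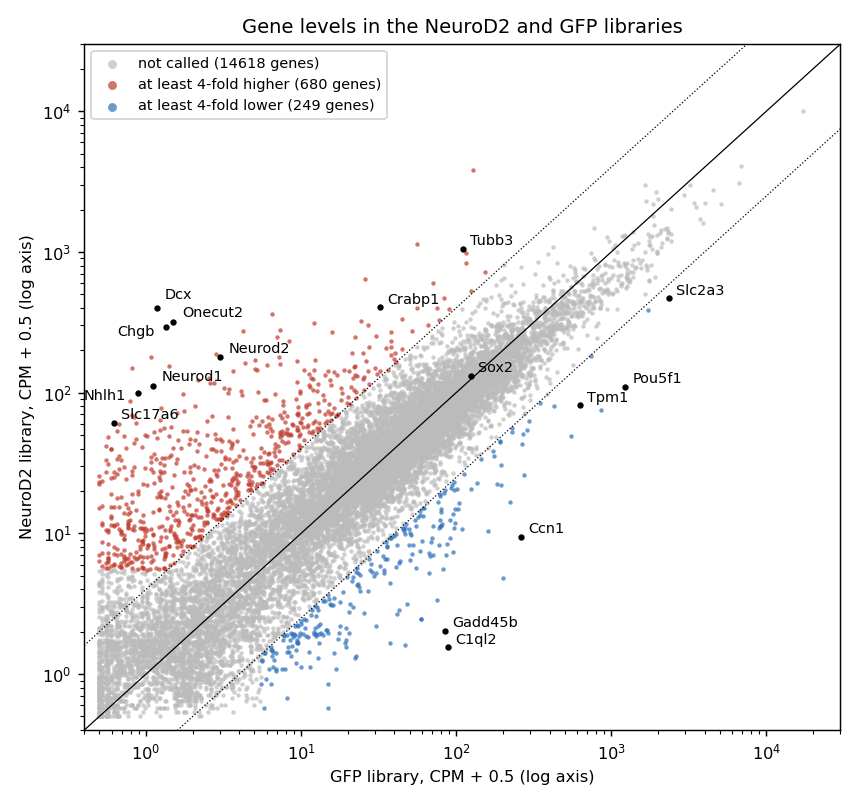
Level of each measured gene in the GFP library (x axis) and the NeuroD2 library (y axis), both as CPM + 0.5 on log axes, 1 point a gene; the solid line marks equal levels and the dotted lines a 4-fold difference. The 680 genes called higher include many near the left edge, where GFP is close to 0, and the 249 called lower stay closer to the dotted line.

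The delivered gene was high in the library labelled NeuroD2. Neurod2 (ENSMUSG00000038255) stood at 180 CPM there and at 2.5 CPM in GFP, a 71.8-fold difference (59.1 to 88.1). A count per gene cannot tell transcripts of the lentivirus from endogenous ones. Myod1 stood at 0.804 CPM in NeuroD2 and 0.681 CPM in GFP. The markers given for this comparison, Neurod1, Nhlh1, Dcx and Slc17a6, were all among the 25 genes furthest above GFP. Dcx was at 397 against 0.681 CPM (583-fold, 403 to 877), with 2.65 to 546 CPM in the other 6 libraries. Each marker of the neuronal label was thus high in NeuroD2 and under 1 CPM in GFP.

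The stretch before the start of transcription is shown for those 4 markers and for 3 more of the 25 furthest genes, because the factor delivered reads E-boxes. The 3 were picked for the E-box letters they hold, so their matches are no finding. Sequences are from RefSeq on GRCm38.p6, cover the 250 bases before the first listed start, run 5′ to 3′ along the gene's strand, and have CAGATG and CAGCTG, on either strand, in capitals. CAGATG is an E-box favoured by NeuroD2 and CAGCTG one bound by both NeuroD2 and MyoD. Sim1 held the most CAGATG words among the 25, Rgs4 held 1, as did Nhlh1 and Nhlh2, and Kcnd3, chosen after its letters were seen, was the only one with CAGCTG.
Nhlh1, chr1:172057597-172057846, minus strand: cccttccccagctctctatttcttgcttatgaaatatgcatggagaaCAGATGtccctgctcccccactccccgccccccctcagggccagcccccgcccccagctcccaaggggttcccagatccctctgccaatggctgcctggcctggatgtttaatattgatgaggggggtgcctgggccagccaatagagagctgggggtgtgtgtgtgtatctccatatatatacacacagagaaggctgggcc
Sim1, chr10:50895401-50895650, plus strand: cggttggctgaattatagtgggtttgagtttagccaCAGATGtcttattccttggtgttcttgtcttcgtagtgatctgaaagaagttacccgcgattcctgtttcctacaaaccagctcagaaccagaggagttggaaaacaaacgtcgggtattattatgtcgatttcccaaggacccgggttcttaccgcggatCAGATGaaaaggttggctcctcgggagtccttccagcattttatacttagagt
Rgs4, chr1:169747643-169747892, minus strand: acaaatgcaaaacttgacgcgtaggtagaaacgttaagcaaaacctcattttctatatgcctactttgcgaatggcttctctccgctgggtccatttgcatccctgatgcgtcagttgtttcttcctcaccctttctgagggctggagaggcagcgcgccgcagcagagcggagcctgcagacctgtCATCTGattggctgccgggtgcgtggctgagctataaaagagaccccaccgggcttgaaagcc
Kcnd3, chr3:105451640-105451889, plus strand: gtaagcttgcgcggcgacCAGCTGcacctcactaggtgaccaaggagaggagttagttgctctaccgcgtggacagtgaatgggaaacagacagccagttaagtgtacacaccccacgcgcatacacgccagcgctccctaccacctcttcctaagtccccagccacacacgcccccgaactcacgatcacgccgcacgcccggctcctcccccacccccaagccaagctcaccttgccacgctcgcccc
Neurod1, chr2:79456637-79456886, minus strand: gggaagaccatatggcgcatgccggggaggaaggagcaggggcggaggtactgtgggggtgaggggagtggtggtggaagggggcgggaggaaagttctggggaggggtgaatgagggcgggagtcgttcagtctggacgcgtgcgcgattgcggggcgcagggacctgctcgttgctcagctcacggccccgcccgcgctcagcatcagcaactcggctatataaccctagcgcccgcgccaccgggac
Dcx, chrX:143933220-143933469, minus strand: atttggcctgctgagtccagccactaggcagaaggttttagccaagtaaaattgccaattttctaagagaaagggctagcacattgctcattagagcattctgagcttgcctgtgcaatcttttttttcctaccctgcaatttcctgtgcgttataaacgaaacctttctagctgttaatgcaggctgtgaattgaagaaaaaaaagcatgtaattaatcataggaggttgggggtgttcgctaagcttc
Slc17a6, chr7:51621580-51621829, plus strand: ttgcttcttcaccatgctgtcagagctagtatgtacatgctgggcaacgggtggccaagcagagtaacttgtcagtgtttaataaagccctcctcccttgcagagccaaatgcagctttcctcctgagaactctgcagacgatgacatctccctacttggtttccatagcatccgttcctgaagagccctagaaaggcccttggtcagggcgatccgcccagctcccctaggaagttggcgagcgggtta

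Sim1 held CAGATG at positions -214 and -53 from the start, Nhlh1 at -203 and Rgs4 at -63, the last on the other strand, while Kcnd3 held CAGCTG at -232. Neurod1, Dcx and Slc17a6 held neither word in this window. Of the 25 genes 17 had a promoter in the table. Over all genes called higher with a promoter listed, 20% of 461 held CAGCTG, against 13.9% of 158 called lower, 11.6% of 10341 measured genes that were not called and 12.8% of all 27025 promoters. CAGATG was found in 9.54%, 9.49%, 9.75% and 14.5% of the same groups. CAGGTG, another E-box, was in 18%, 20.3%, 15.1% and 17.1%, and CAGTTG in 8.24%, 10.1%, 8.39% and 11.1%. By presence of at least 1 word, the genes called higher thus held CAGCTG more often than the other groups. They held CAGATG about as often as measured genes that were not called. Promoters with 2 or more CAGATG were 1.52% (7 genes), 0%, 0.6% and 1.33% of the same groups. For CAGCTG these shares were 1.95%, 1.27%, 0.928% and 1.16%, for CAGGTG 1.3%, 3.8%, 1.6% and 2.06%, and for CAGTTG 0%, 0%, 0.455% and 0.851%. Median GC content was 62% in the genes called higher, 61% in those called lower and 60% in measured genes not called. A match is a run of letters and not a measured binding site, and these shares were not tested.

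The bHLH cascade itself was far higher in NeuroD2. Among 21 listed proneural and neuronal bHLH genes other than Neurod2, 17 were measured, 10 were called higher and 0 lower, with a median log2 ratio of 2.62 against 0.03 for all measured genes. That median was 1.58 with a pseudocount of 2 CPM and 3.69 over members averaging 1 CPM or more. The called share was 58.8%, against 4.37% of all measured genes. Some members, such as Nhlh2, count as measured only through NeuroD2 and the libraries that carry its bHLH domain. The lists were also chosen with earlier results of these data known. Both can favour a high share and median for the neuronal lists here and below. Neurod4, a factor of early neuron formation, had 933 counts in NeuroD2 and 2 in GFP, 32.6 against 0.0486 CPM (670-fold, 185 to 5540). In the other 6 libraries Neurod4 ran from 0.576 to 14.9 CPM, so the NeuroD2 library held the highest level of the 8. Neurod1 stood at 111 against 0.608 CPM (183-fold, 124 to 283) and Nhlh1 at 99.1 against 0.389 CPM (255-fold, 157 to 446). Both were higher still in another library, up to 150 CPM for Neurod1 and 182 CPM for Nhlh1. Nhlh2, the close relative of Nhlh1, had 718 counts in NeuroD2 and 0 in GFP and was at least 344-fold higher against the floor of 3 counts. Olig2, a factor of ventral spinal progenitors that give motor neurons and oligodendrocytes, stood at 48.9 against 0.219 CPM (223-fold, 117 to 490). Bhlhe22, a factor of later neurons, was 69.2-fold higher (47.6 to 104). The proneural gene Neurog2, named after its values were seen, was not called, at 0.769 against 0.438 CPM. Tal2, the member nearest to no change, was at 14.8 and 12.8 CPM.

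Among the partners and inhibitors of these factors, all 7 listed E-protein and Id genes were measured, with a median of 1.8. Of the 7, 3 were called higher (42.9%, against 4.37% of all measured genes) and 0 lower. The E-protein genes were not called: Tcf3, which encodes E2A, was at 234 against 238 CPM, Tcf4 at 117 against 49.8 CPM (2.35-fold, 2.23 to 2.49) and Tcf12 at 190 against 122 CPM (1.56-fold, 1.5 to 1.62). The 3 called higher were all Id genes. Id2 was at 113 against 15 CPM (7.53-fold, 6.91 to 8.22), Id4 at 48.1 against 6.76 CPM (7.12-fold, 6.25 to 8.12) and Id1 at 48.7 against 9.24 CPM (5.27-fold, 4.7 to 5.92). Id3 was at 28.1 against 7.69 CPM (3.65-fold, 3.2 to 4.18), short of the 4-fold rule. In NeuroD2, Id2 and Id1 stood above all of the other 6 libraries, which reached 63 and 28.9 CPM. Inhibitor genes of bHLH dimers were therefore among those called in the same library as the bHLH genes themselves.

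Other neuronal transcription factors were higher as a group. Of 39 listed zinc-finger, Ebf, Sox and POU genes 34 were measured, with a median of 2.16. Among them 16 were called higher (47.1%, against 4.37% of all measured genes) and 0 lower. Onecut2, a cut-homeodomain factor of motor and other neurons, stood at 317 against 0.997 CPM (318-fold, 234 to 443). St18 and Myt1, zinc-finger factors of the same family, were 194-fold (115 to 356) and 226-fold higher (103 to 617). Scrt1, a repressor found in neurons, was at 28.3 against 0.17 CPM (166-fold, 80.2 to 414). The Ebf genes, which act downstream of bHLH factors in migrating neurons, followed: Ebf3 was at 188 against 2.31 CPM (81.4-fold, 66.5 to 101) and Ebf1 at 122 against 1.65 CPM (73.6-fold, 57.9 to 95). Sox12, nearest to no change, was at 105 and 89.5 CPM. Rest, which represses neuronal genes outside neurons, was at 56.2 CPM in NeuroD2 and 101 CPM in GFP and did not reach the 4-fold rule; it was named after its values were seen.

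Genes that mark particular neuron types were higher for several types at once. Of 66 listed spinal and brain homeodomain and subtype factors 64 had a row and 49 were measured. Among the 49, 16 were called higher (32.7%) and 2 lower (4.08%), against 4.37% and 1.60% of all measured genes. The list median was 1.5, which became 0.89 with a pseudocount of 2 CPM. Sim1, a bHLH-PAS factor of V3 interneurons and the hypothalamus, stood at 86.6 against 0.292 CPM (297-fold, 170 to 575), above its range of 0.614 to 52.6 CPM in the other 6 libraries. Phox2a, a factor of visceral motor and autonomic neurons, lay on the other side, at 14.4 CPM in NeuroD2 and 78.8 CPM in GFP (5.49-fold lower, 4.95 to 6.1). Isl1, a LIM factor of motor and sensory neurons, had 0 counts in GFP and stood at 6.53 CPM. Lhx9, of dorsal interneurons, had 1 count in GFP and stood at 8.18 CPM (336-fold, 59.7 to 13300), and Tlx1, of sensory relay neurons, stood at 14.7 against 0.268 CPM (55-fold, 30.4 to 111). Nkx6-1, which patterns the ventral spinal cord, was at 144 against 4.72 CPM (30.6-fold, 26.5 to 35.5), and no other library passed 23.7 CPM. Gata3, found in V2b and serotonergic neurons among other tissues, was at 1.47 against 17 CPM (11.6-fold lower, 8.51 to 16.3). Otx2, of the forebrain and midbrain, was close to equal at 166 and 160 CPM. These are levels of bulk RNA, in which a few cells with much of a transcript and many cells with little cannot be told apart.

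Hox genes, which mark position along the body axis, stayed low in both libraries. Of 39 listed, 38 had a row and 15 reached 1 CPM in some library, but 0 reached 5 CPM in NeuroD2 or GFP, their median was 0.92, or -0.04 over members averaging 1 CPM or more, and their summed level was 24.8 CPM in NeuroD2 and 16.8 CPM in GFP.

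Several more of the 25 genes furthest above GFP belong to none of the gene lists. Rgs4, a brake on G-protein signalling, was at 148 against 0.316 CPM (469-fold, 274 to 882) and reached 759 CPM in another library. Nrn1, neuritin, of neurite growth, was at 59.8 against 0.17 CPM (351-fold, 170 to 875), and Shox2, a homeodomain factor of spinal interneurons, at 39.5 against 0.0973 CPM (406-fold, 158 to 1490). Uncx, another homeodomain gene, had 2 counts in GFP and 1184 in NeuroD2, and Ppp1r17, a phosphatase inhibitor known from Purkinje cells, had 1 and 663. Gsg1l, an auxiliary subunit of AMPA receptors, had 2 and 765. Iqsec3, of inhibitory synapses, and Lrrn3, a leucine-rich repeat protein of neurons, had no count in GFP and, against the floor of 3 counts there, were at least 308-fold and 302-fold higher. Myo16, a myosin of neurons, and Nxph4, a neurexophilin, were 218-fold (127 to 411) and 166-fold higher (100 to 298). None of these 10 was highest in NeuroD2.

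**Figure D2:**
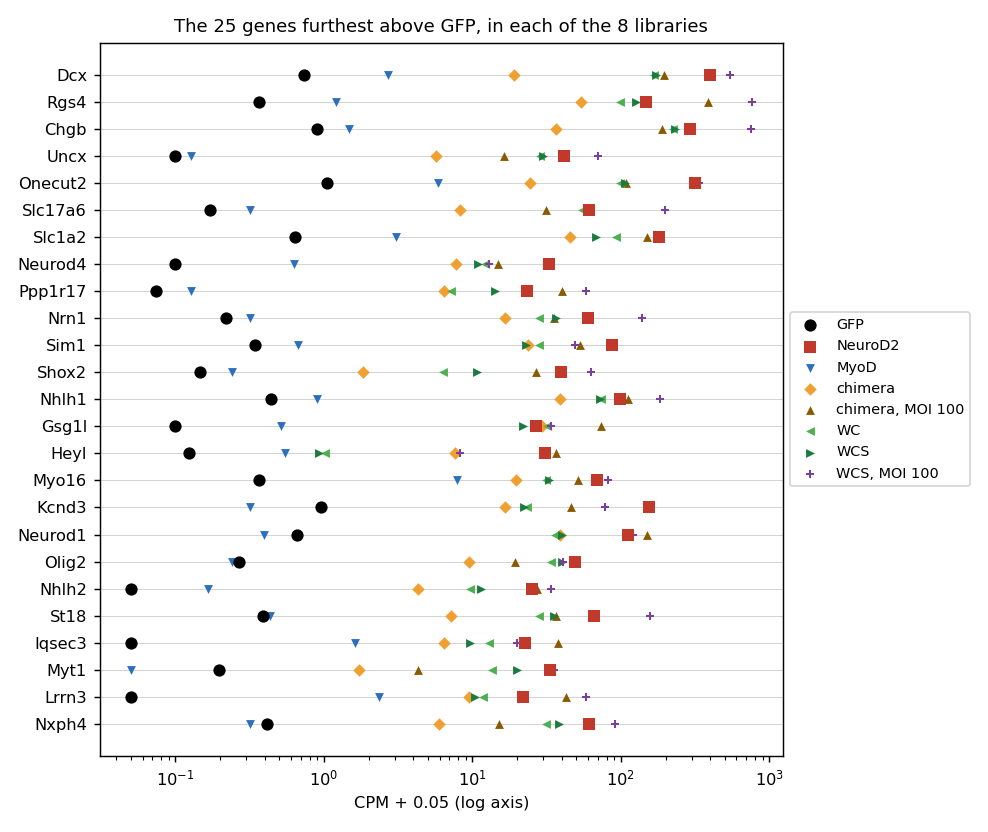
Levels of the 25 named genes furthest above GFP by the lower end of the interval, in order, as CPM + 0.05 on a log axis, 1 marker a library. GFP (black circles) lies under 1 CPM for each gene and MyoD (blue triangles) is the lowest of the other 7 libraries, while NeuroD2 (red squares) lies between 22 and 397 CPM.

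Structural genes of the neuron were among those called higher. Of 46 neuronal cytoskeleton genes, all measured, 16 were called higher (34.8%, against 4.37% of all measured genes) and 0 lower. Their median was 1.61, and their summed level was 14600 CPM in NeuroD2 and 4890 CPM in GFP. Dcx, the microtubule protein of migrating neurons, stood at 397 against 0.681 CPM and Ina, a neuronal intermediate filament protein, at 362 against 5.98 CPM (60.5-fold, 53.3 to 69). Mapt, which encodes tau, was 40.2-fold higher (29.5 to 56.4) and Map2, of dendrites, 25.1-fold higher (23.5 to 26.7). Gprin1, a growth cone protein, was at 98.9 against 2.89 CPM and Rtn1, a neuronal reticulon, at 234 against 7.88 CPM. Bex2, nearest to no change, was at 114 CPM in both libraries.

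Of 81 listed axon guidance and adhesion genes 79 were measured, with a median of 1.21. Among the 79, 28 were called higher (35.4%) and 3 lower (3.8%), against 4.37% and 1.60% of all measured genes. Ret, the receptor for GDNF-family ligands, stood at 97.4 against 1.24 CPM (78.5-fold, 59.5 to 106). Its ligand Gdnf went the other way, at 0.804 against 21.8 CPM (27.2-fold lower, 18 to 43.1). Ligand and receptor thus lay on opposite sides. Robo2, the receptor for Slit guidance cues, stood at 71.4 against 1.09 CPM (65.3-fold, 48.6 to 89.8). Dscam and Dscaml1, homophilic adhesion proteins of neurites, were 58.3-fold (33.8 to 110) and 49.9-fold higher (27.6 to 101), and Lrrtm1, a synapse organiser, had 2 counts in GFP and stood at 9.99 CPM in NeuroD2. Ntrk2, the BDNF receptor, was at 4.82 against 28.2 CPM (5.85-fold lower, 4.9 to 7.03). Sema3e, a secreted repellent, and Unc5b, a netrin receptor also found in vessels, were 5.24-fold (4.61 to 5.96) and 4.32-fold lower (4 to 4.68). Epha7 was at 21.5 and 22.3 CPM.

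Genes of transmitter release were higher. Of 51 synaptic vesicle and exocytosis genes 47 were measured, with a median of 1.72. Among the 47, 19 were called higher (40.4%, against 4.37% of all measured genes) and 0 lower. Rab3c, a vesicle GTPase, was at 24.5 against 0.122 CPM (201-fold, 85.8 to 621). Syt4 and Syt2, synaptotagmins, were 82.4-fold (56 to 127) and 40.8-fold higher (29 to 59.3), and Syp, the vesicle protein synaptophysin, stood at 161 against 3.84 CPM (41.9-fold, 35.7 to 49.4). Doc2b, a calcium sensor of release, was at 10.9 CPM against 0.122 in GFP and at most 2.82 in the other 6 libraries. Bsn, a scaffold of the presynaptic zone, was at 35.3 against 0.948 CPM (37.2-fold, 27 to 52.6). Sh3gl2, of vesicle recycling, was at 10.1 and 9.29 CPM.

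Granin genes were among those furthest above GFP. Of 30 listed genes of dense-core granules and neuropeptides 20 were measured, with a median of 1.47. Among the 20, 6 were called higher (30%) and 1 lower (5%), against 4.37% and 1.60% of all measured genes. Chgb stood at 290 against 0.851 CPM (341-fold, 245 to 489) and Scg3 at 141 against 3.16 CPM (44.4-fold, 37.3 to 53.3), both granins. Pcsk2, a convertase that cuts prohormones, was 179-fold higher (81.9 to 490), and Scg2, Ptprn2 and Chga were 80.7-fold (46.9 to 152), 17.3-fold (14.2 to 21.2) and 15-fold higher (12.3 to 18.6). The 1 gene called lower was a peptide: Npy, neuropeptide Y, was at 2.86 CPM in NeuroD2 and 74.3 CPM in GFP (25.9-fold lower, 20.8 to 32.7), and at 23.5 CPM or less in the other 6 libraries.

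The genes of 2 vesicular glutamate transporters were called higher. Slc17a6, the vesicular glutamate transporter VGLUT2, stood at 60.6 against 0.122 CPM (499-fold, 213 to 1540), with 0.269 to 197 CPM in the other 6 libraries. Slc17a7, VGLUT1, was at 27.4 against 0.316 CPM (86.5-fold, 50.3 to 163). Ache, the enzyme that breaks down acetylcholine, was at 18.5 against 0.389 CPM (47.5-fold, 29 to 83.7). These were the 3 called of 15 measured (20%, against 4.37% of all measured genes), of 25 listed, with 0 called lower. The list median was 0.97, or 0.37 with a pseudocount of 2 CPM. The markers of inhibitory neurons, named after their values were seen, were low in both: Gad1 had 1 count in NeuroD2 and 18 in GFP, Gad2 was at 1.05 against 1.87 CPM and Slc32a1 at 0.454 against 1.17 CPM. Chat, the acetylcholine-making enzyme, reached 2.24 against 0.0973 CPM, which is under the 5 CPM minimum.

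Of 69 ion channel genes 62 were measured, with a median of 1.59, or 0.90 with a pseudocount of 2 CPM. Among the 62, 20 were called higher (32.3%, against 4.37% of all measured genes) and 0 lower. Kcnd3, a subunit of the A-type potassium channel, stood at 155 against 0.9 CPM (172-fold, 125 to 245), above the 0.269 to 78.5 CPM of the other 6 libraries. Kcnh1, another potassium channel, was 102-fold higher (65.8 to 168) and Scn3a, a sodium channel of developing neurons, 74.1-fold higher (51.7 to 110). Cacna2d1, an accessory subunit of calcium channels, was at 247 against 6.54 CPM (37.7-fold, 33.4 to 42.8), and Kcnc1 was 43.8-fold higher (33.1 to 59.3). Potassium, sodium and calcium channel genes were thus all among those called. Among 59 receptors for transmitters 40 were measured, 8 were called higher (20%) and 0 lower, with a median of 0.75. Sstr2, a somatostatin receptor, was at 26.8 against 0.122 CPM (221-fold, 94.1 to 681), Gabbr2, a GABA-B subunit, at 40.5 against 0.438 CPM (92.4-fold, 58.2 to 156) and Htr1a, a serotonin receptor, at 11.4 CPM with 1 count in GFP. The nicotinic receptor genes Chrnb4 and Chrnb2 were 33-fold (25.3 to 43.7) and 12.1-fold higher (10.5 to 14), and Chrna3 had 0 counts in GFP and stood at 5.9 CPM. Gria4, an AMPA receptor subunit, was at 14.2 and 15.4 CPM.

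RNA-binding proteins of neurons were higher too. Of 28 listed RNA-binding and splicing genes 26 were measured, with a median of 1.58. Among the 26, 10 were called higher (38.5%, against 4.37% of all measured genes) and 0 lower. Celf3 stood at 77.3 against 0.754 CPM (103-fold, 72 to 151) and Srrm4, which drives the inclusion of neuronal microexons, at 127 against 2.04 CPM (62.3-fold, 50.2 to 78.3). Elavl3 and Elavl4, the Hu antigens, were 13.4-fold (12.6 to 14.4) and 15.4-fold higher (13.5 to 17.5), while Celf1, a broadly found relative, was at 323 and 324 CPM. In the BAF chromatin complex, whose subunits are exchanged when progenitors become neurons, 2 of 24 genes were called higher, or 8.33% against 4.37% of all measured genes, with 20 under 2-fold apart and a median of 0.21. They were Actl6b, the neuronal subunit BAF53b, at 18.4 against 0.0973 CPM (190-fold, 73.6 to 699), and Dpf3, at 8.28 against 1.14 CPM (7.24-fold, 5.28 to 10.1). Actl6a, the progenitor counterpart of Actl6b, was named after its values were seen and stood at 127 and 141 CPM.

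**Figure D3:**
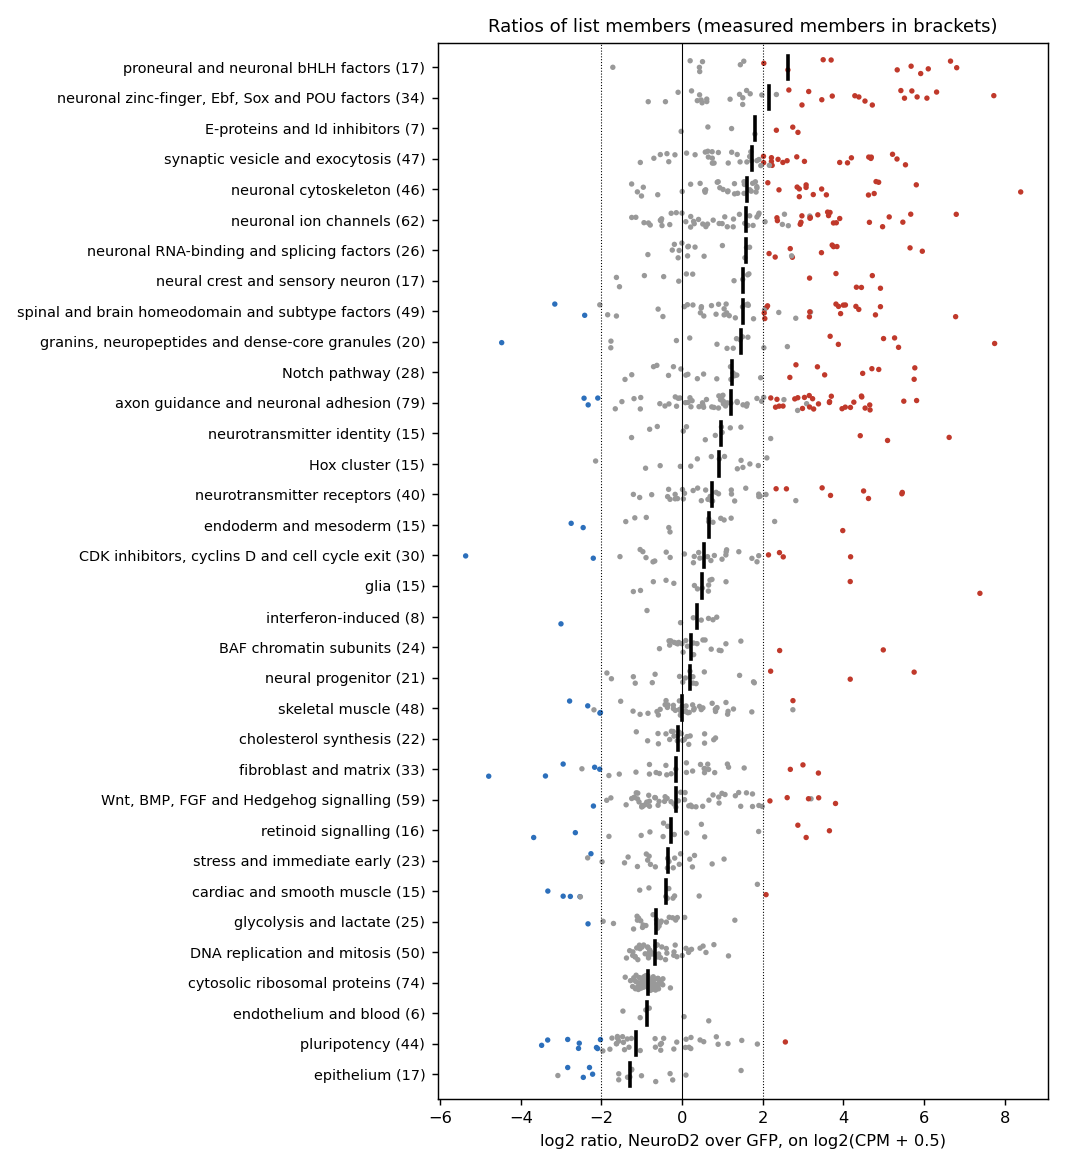
Log2 ratio of NeuroD2 over GFP on log2(CPM + 0.5) for each measured member of the gene lists (x axis), 1 row a list, with the number of measured members in brackets; red points are called higher, blue called lower, grey not called, black bars are list medians and dotted lines the 4-fold threshold. Neuronal lists hold the higher medians, from 2.62 for the bHLH list, and epithelial and pluripotency genes the lowest, at -1.30 and -1.15.

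Notch pathway genes were higher on both the sending and the receiving side. Of 29 listed 28 were measured, with a median of 1.24. Among the 28, 9 were called higher (32.1%, against 4.37% of all measured genes) and 0 lower. Among targets, Heyl had 3 counts in GFP and 880 in NeuroD2, 30.7 CPM (421-fold, 144 to 2050), Hes5 was at 46.1 against 0.365 CPM (126-fold, 76.4 to 227) and Hey1 at 40.2 against 3.02 CPM (13.3-fold, 11.1 to 16.2). Hes1, another target, was named after its values were seen and was lower, at 27.5 against 74.1 CPM, short of the 4-fold rule. The targets thus did not all lie on one side. Among ligands, Dll4 was at 45.3 against 1.56 CPM (29.1-fold, 22.6 to 38) and Dner, a neuronal Notch ligand, at 147 against 4.52 CPM (32.5-fold, 28 to 37.8). Mfng, a glycosyltransferase that modifies Notch, was 28.3-fold higher (24.8 to 32.5). Rbpj, the DNA-binding partner of Notch, was at 177 and 181 CPM.

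Neural progenitor genes had a median near that of all measured genes, 0.20 against 0.03, but their ratios were spread. Of 23 listed 21 were measured, 3 were called higher, or 14.3% against 4.37% of all measured genes, and 0 lower. Their log2 ratios ran from -1.87 to 5.75, and 11 lay under 2-fold apart. The 3 were Hes5, Fabp7, a fatty-acid-binding protein of radial glia, at 13.7 against 0.292 CPM (47-fold, 26.6 to 91.8), and Rfx4, at 16 against 3.11 CPM (5.15-fold, 4.23 to 6.32). Msi1, an RNA-binding protein of neural stem cells, was at 208 and 206 CPM.

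Several genes of the undifferentiated state were called lower. Of 53 pluripotency genes 44 were measured, with a median of -1.15. Among the 44, 8 were called lower (18.2%, against 1.60% of all measured genes) and 1 higher (2.27%, against 4.37%). Oct4 is the product of Pou5f1, which stood at 109 CPM in NeuroD2 and 1230 CPM in GFP (11.2-fold lower, 10.8 to 11.6), and between 29.1 and 587 CPM in the other 6 libraries. Utf1, a chromatin factor of embryonic stem cells, was at 6.5 against 70 CPM (10.8-fold lower, 9.29 to 12.6). Nanog was 6.04-fold lower (5.57 to 6.57) and the Nodal co-receptor gene Tdgf1 7.37-fold lower (5.44 to 10.2). Foxh1, a transcription factor of Nodal signalling, was at 33.3 against 144 CPM (4.33-fold lower, 4.04 to 4.64). Sox2, which neural progenitors share with stem cells, was close to equal at 131 and 124 CPM. The 1 called higher was Tdh, threonine dehydrogenase of mouse stem cells, at 5.17 against 0.462 CPM (11.2-fold, 6.92 to 19.1). Epithelial genes were lower as well, with 4 of 17 measured (23.5%), of 27 listed, called lower and 0 higher and a median of -1.30. Epcam was 7.43-fold lower (6.61 to 8.39), Krt18 7.07-fold (4.72 to 11), Perp 6.27-fold (4.97 to 8.02) and Krt8 5.27-fold (4.2 to 6.69). Their list summed to 105 CPM in NeuroD2, 305 in GFP and 72.3 to 177 in the other 6 libraries, with 6 of the 27 genes at a count of 0 in NeuroD2.

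Cell division genes shifted less than the threshold. Of 50 replication and mitosis genes, all measured, 0 were called in either direction, and 39 lay under 2-fold apart, but 40 had a ratio below 1 and the median was -0.67. Their summed level was 8290 CPM in NeuroD2, 12600 CPM in GFP and 5620 to 12000 CPM in the other 6 libraries. Pola1, of the replication polymerase, was at 59.6 and 59.5 CPM. Of 31 listed genes of cell cycle exit 30 were measured, 4 were called higher (13.3%) and 2 lower (6.67%), with a median of 0.53. Of all measured genes 4.37% were called higher and 1.60% lower. Btg2, an antiproliferative gene of newborn neurons, was at 131 against 22.6 CPM (5.79-fold, 5.39 to 6.23), Plk2 at 49.9 against 2.29 CPM (21.8-fold, 17.7 to 27.2) and Cdk5r1, the activator of neuronal Cdk5, at 45.9 against 10 CPM (4.58-fold, 4.1 to 5.13). Plk3, a stress-responsive kinase, was 5.53-fold higher (4.97 to 6.16). Gadd45b, a stress gene, was among the lowest of all at 1.54 against 83.6 CPM (54.4-fold lower, 40.4 to 75), and Cdk6, a G1 kinase, was 4.78-fold lower (4.23 to 5.42).

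Among genes of protein synthesis and glycolysis, 1 passed the 4-fold rule, while both list medians lay below 0. All 74 cytosolic ribosomal protein genes with a row had a ratio below 1, from -1.41 to -0.29 on the log2 scale, with a median of -0.85, and 0 were called. With library totals in place of the scaling that median was -0.70. Their summed level was 55700 CPM in NeuroD2 and 102000 CPM in GFP. Both libraries at MOI 100 were lower still, at 48000 CPM for the chimera construct and 40900 CPM for WCS, and the other 4 stood between 77400 and 85900 CPM. Ribosomal protein genes have many processed copies in the genome, and how the authors' counting shared reads among them is not given. Glycolysis genes had a median of -0.64, or -0.49 with library totals, with 2 of 25 above 0. Of the 25, 1 was called lower (4%, against 1.60% of all measured genes). The gene called was Slc2a3, the glucose transporter GLUT3, at 468 against 2360 CPM (5.04-fold lower, 4.95 to 5.14). Cholesterol synthesis genes showed 0 calls among 22 measured, of 23 listed, and a median of -0.10, or 0.05 with library totals.

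Signalling genes were mixed. Among 20 retinoid genes, of interest because P19 cells form neurons after retinoic acid, 16 were measured, 3 were called higher and 2 lower. These shares, 18.8% and 12.5%, stand against 4.37% and 1.60% of all measured genes, and the list median was -0.27. Crabp1, a retinoic-acid-binding protein, was at 403 against 31.6 CPM (12.8-fold, 12 to 13.5), above the 3.69 to 231 CPM of the other 6 libraries. Stra6, a retinol transporter, was 7.94-fold higher (6.84 to 9.25) and Cyp26b1, which degrades retinoic acid, 17.4-fold higher (10.6 to 30.5). The receptor gene Rarg was at 4.72 against 66.4 CPM (14.1-fold lower, 11.8 to 16.9) and Rdh10, which makes retinal, 6.49-fold lower (5.8 to 7.27). Of 65 Wnt, BMP, FGF and Hedgehog genes 59 were measured, 5 were called higher and 1 lower, with a median of -0.16. These are 8.47% and 1.69%, against 4.37% and 1.60% of all measured genes, so the lower share was at the background. Fgf10 and Fgf3, growth factor genes, were 28-fold (17.7 to 47) and 31.6-fold higher (15 to 79.9), Wnt7b 19.7-fold (12.6 to 32.3), Fzd3, a Wnt receptor needed for axon tracts, 6.15-fold (5.82 to 6.5) and Wnt5b 4.84-fold higher (4.17 to 5.63). Wnt6 was 6.5-fold lower (4.36 to 10.1). Ptch1, a Hedgehog target, was at 73.6 and 75.5 CPM.

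The genes furthest below GFP came from several functional groups. C1ql2, a secreted synapse organiser, was at 1.05 against 87.9 CPM (83.9-fold lower, 58.7 to 125). Fgfbp1, which releases FGFs from matrix, had 2 counts in NeuroD2 and 586 in GFP (204-fold lower, 56.2 to 1690), Rgcc, a cell cycle regulator, was at 4.3 against 200 CPM (46.5-fold lower, 39 to 56.1) and Steap3, a metal reductase, at 1.12 against 46.1 CPM (41.3-fold lower, 29.1 to 60.5). GFP stood apart for these genes: Fgfbp1 was at 0.414 CPM or less in all of the other 6 libraries and Steap3 at 5.84 CPM or less. Ccn1, a matrix protein of the YAP and serum response, was at 8.98 against 263 CPM (29.3-fold lower, 25.9 to 33.2), and the peptidase gene Mme at 1.15 against 37 CPM (32.1-fold lower, 22.7 to 46.8). Polarity and junction genes of epithelia were among the 25 as well, with Crb3 43.7-fold (18.5 to 136), Cdh3, P-cadherin, 26.3-fold (17.6 to 41.3) and Llgl2 18.9-fold lower (14.7 to 24.8). For 221 of the 249 genes called lower, GFP held the highest level of all 8 libraries, and for 148 it lay at least 2-fold above each of the others. These genes were chosen for a high GFP level, which favours such a result, and GFP is also the 1 library of the series that carried no bHLH factor. With 1 GFP library, its own peculiarities and the absence of a bHLH factor cannot be told apart. MyoD stood above GFP for Npr3, Hspb1, Erbb3 and Bcam, a laminin-binding protein. Erbb3, a neuregulin receptor, was at 1.05 CPM in NeuroD2, 19 in GFP and 134 in MyoD, and Hspb1, a small heat shock protein, at 2.34, 42 and 90.3 CPM. Rn7s6, a 7S RNA gene, was at 0.594 against 16.3 CPM, and its libraries fell apart as those of Lars2 did: MyoD, WC and WCS stood at 13.5, 13.0 and 14.4 CPM beside GFP, and the chimera, the chimera at MOI 100 and WCS at MOI 100 at 0.565, 1.21 and 1.28 CPM beside NeuroD2. The zinc transporter gene Slc39a8 was at 16.1 against 221 CPM (13.7-fold lower, 12.5 to 15.1), the lysosomal reductase gene Ifi30 at 9.96 against 159 CPM (16-fold lower, 14.2 to 18.1) and Bhlhe41, a bHLH repressor, at 5.07 against 81.2 CPM (16-fold lower, 13.6 to 19.1). Akr1c14, Phlda2, Arhgap22 and the forkhead gene Foxi3 completed the list, between 13.1-fold and 41.2-fold lower.

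**Figure D4:**
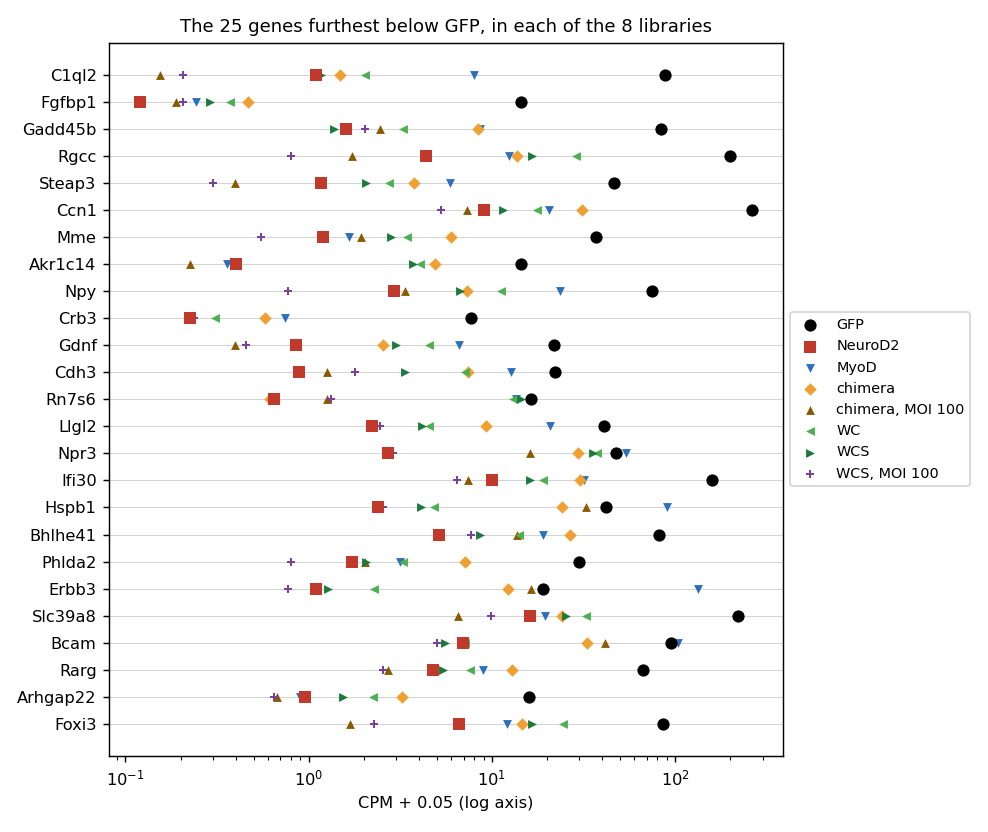
Levels of the 25 named genes furthest below GFP by the interval end nearest to no change, in order, as CPM + 0.05 on a log axis, 1 marker a library. GFP (black circles) lies at the right of nearly every row, with MyoD (blue triangles) further right for Npr3, Hspb1, Erbb3 and Bcam.

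Markers of other cell types were read the same way. The shares called are given in brackets, beside 4.37% higher and 1.60% lower over all measured genes. Of 48 skeletal muscle genes, all measured because the MyoD library expresses them, 1 was called higher (2.08%) and 4 lower (8.33%). Of the 48, 41 stayed under 5 CPM in both libraries. The summed level of the 48 was 58.1 CPM in NeuroD2, 121 in GFP and up to 18200 in the other 6. Myh3, embryonic myosin, was at 6.29 against 0.511 CPM (12.3-fold, 7.82 to 20.4), while Actc1, a sarcomeric actin, was 7.44-fold lower (6.33 to 8.78), Tnnt1 5.85-fold (4.59 to 7.55), Actn3 5.17-fold (3.71 to 7.38) and Des, desmin, 4.41-fold lower (3.7 to 5.28). Myog, which defines differentiating muscle, had 5 counts in NeuroD2 and 2 in GFP. Contractile genes of smooth muscle were lower: Tagln was at 10.3 against 108 CPM (10.5-fold lower, 9.32 to 11.8), Tpm1 at 80.5 against 625 CPM (7.77-fold, 7.44 to 8.11), Acta2 at 14.5 against 102 CPM (7.03-fold, 6.35 to 7.79) and Cnn1 8.33-fold lower (5.62 to 12.8). In that cardiac and smooth muscle list of 22, 15 were measured, 4 were called lower (26.7%) and 1 higher (6.67%). The 1 was Mylk, a myosin kinase, 5.37-fold higher (4.01 to 7.31). Among 35 fibroblast and matrix genes 33 were measured, 3 were called higher (9.09%) and 5 lower (15.2%). Postn was 13.6-fold (10.4 to 18.1), Prrx1 14.5-fold (9.34 to 23.6) and Vcan 6.85-fold higher (5.99 to 7.87). Ccn1, Thbs1 (10.7-fold, 9.89 to 11.5), Ccn2 (11.3-fold, 7.65 to 17.3), Timp1 (5.25-fold, 4.06 to 6.88) and Sparc (4.14-fold, 3.97 to 4.33) were lower. The summed level of the cardiac and smooth muscle list was 223 CPM in NeuroD2, 994 in GFP and 233 to 3810 in the other 6, and that of the fibroblast and matrix list 1870, 2610 and 1580 to 2510 CPM. Whether cells of these kinds were fewer in one culture was not tested.

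Of 27 listed glial genes 15 were measured, 2 were called higher, or 13.3% against 4.37% of all measured genes, and 0 lower, with a median of 0.50. The 2 were Slc1a2, a glutamate transporter known from astrocytes, at 180 against 0.584 CPM (309-fold, 207 to 483), and Fabp7. Gfap, Sox10 and S100b, defining glial genes, had 10, 3 and 1 counts in NeuroD2. The list summed to 403 CPM in NeuroD2, above 173 in GFP and 209 to 382 in the other 6 libraries, and Slc1a2 made up 180 CPM of it. In the neural crest and sensory neuron list 6 of 17 measured genes (35.3%), of 19 listed, were called higher and 0 lower. The list median was 1.5, or 0.89 with a pseudocount of 2 CPM. The genes called higher are given in part. They included Isl1, given above, Pou4f1, a factor of sensory neurons, at 17.7 against 0.195 CPM (91.2-fold, 45.9 to 212), Eya2 at 30.9 against 1.07 CPM (28.9-fold, 21.3 to 40) and the neurotrophin receptor gene Ngfr at 23.1 against 2.14 CPM (10.8-fold, 8.63 to 13.6). Sox10, which defines crest, was near 0, as above, and the list summed to 219 CPM in NeuroD2, 79.2 in GFP and 88.4 to 473 in the others. Of 30 endoderm and mesoderm genes 15 were measured, 1 was called higher (6.67%) and 2 lower (13.3%), against 4.37% and 1.60% of all measured genes. Foxa2, which marks both endoderm and floor plate, was at 12 against 0.292 CPM (41.2-fold, 23.3 to 80.5), while Gata6 and Dab2 were 8.84-fold (6.37 to 12.6) and 5.89-fold lower (4.98 to 7.01), and Afp and Hnf4a had 0 counts in both libraries. Endothelial and blood genes had 0 calls among 6 measured of 18 listed. Interferon-induced genes, read because both cultures were given a virus, had 8 of 30 measured, with 0 called higher and 1 lower (12.5%). That gene, Bst2, was at 1.71 against 17.2 CPM (10.1-fold lower, 7.54 to 13.7). Ifit1 had 0 counts in both, and the list's summed level was 78.8 CPM in NeuroD2 and 79.3 CPM in GFP. Of 27 stress and immediate early genes 23 were measured, 0 were called higher and 1 was called lower (a share of 4.35%). It was Fosl2, 5.7-fold lower (4.35 to 7.58), while Jun was at 94.2 and 96.7 CPM.

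The level of the genes called higher was then read across the series. Their median was 27.2 CPM in NeuroD2 and 1.97 CPM in GFP, the lowest of the 8. The genes were chosen for a NeuroD2 level well above GFP. That choice sets these 2 medians apart and favours a high rank for NeuroD2 and a low one for GFP. Among the other 6 libraries the median was 2.99 CPM with MyoD. It went from 8.74 (chimera) through 14.4 (WC), 14.7 (WCS) and 22.4 (chimera at MOI 100) to 32.3 CPM (WCS at MOI 100). The last was therefore above the library the genes were chosen in. NeuroD2 held the highest level of the 8 for 164 of the 680 genes and WCS at MOI 100 for 344. Neurod2 itself stood at 180 CPM in NeuroD2 and 130 CPM in WCS at MOI 100, with 15.8 CPM or less in WC and WCS, but the constructs of those libraries hold only its bHLH segment. Each of these medians is the level in a single library, with no replicate check.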

How the data were processed

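RNA of 8 P19 cultures, taken with RNeasy or Trizol (which for which is not stated), was sequenced as 1 oligo-dT-selected library each, per the labels. The deposited values are raw read counts per Ensembl gene, not normalized by the authors, who used CASAVA 1.8.2, TopHat2 2.0.8 and mm9, per the submitters' processing notes. Not given in the sources used here are the counter, its annotation and its strand setting, and overlapping genes and near-identical copies could share reads. Symbols came from GENCODE M21, matched by identifier for 32850 genes (87.5%), and 10 of 1233 listed genes had no row.

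CPM were scaled with TMM over the 8 libraries (edgeR 4.0.16, R 4.3.3). With 1 library a group, no test was made. Ratios, calls (4-fold, pseudocount 0.5 CPM, 5 CPM minimum), Clopper-Pearson intervals and a floor of 3 counts for a count of 0 were computed in Python 3.11.15 (scipy 1.17.1). The code was run on simulated data with counting error only and no spread between cultures. Such a run checks the computation and says nothing of the calls made here. Named genes were Neurod2, Myod1, the 4 markers, the 25 furthest in each direction by the interval end nearest to no change (predicted gene models skipped), and in each list up to 6 members a direction, the member nearest to a log2 ratio of 0 at 5 CPM or more, and every called member of lists of other cell types. Others are marked as named after their values were seen, apart from defining markers near 0. The genes and lists were chosen with earlier results of these data known. Alternatives were DESeq2 1.42.0 size factors, library totals, TMM over the compared pair, a pseudocount of 2 CPM, minimum levels of 0 and 10 CPM, an 8-fold threshold, and list members averaging 1 CPM or more. Some listed genes count in the totals but are not reported here by name.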

Additional observations from a re-analysis of the deposited data

How the results depend on the processing

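The calls kept their direction throughout: none of the 261 called genes that were named by rank or held in a list changed sign with DESeq2 size factors, library totals, TMM over NeuroD2 and GFP alone, or a pseudocount of 2 CPM. They remained called in 261, 254, 260 and 217 cases. Library totals moved the median log2 ratio over the measured genes by 0.14, and the share of higher among all calls was 80.4% with them against 73.2%. An 8-fold threshold left 355 genes higher and 56 lower, by its construction. A pseudocount of 2 CPM left 143 genes lower, a count more than 1.5 times smaller, since it draws low levels toward each other. The same pseudocount moved the median of the homeodomain list to 0.89 and that of the cardiac and smooth muscle list from -0.41 to -0.18. It also took the bHLH list from 2.62 to 1.58, transmitter identity from 0.97 to 0.37, ion channels from 1.59 to 0.90 and neural crest genes to 0.89. Over members averaging 1 CPM or more the bHLH median was 3.69. Library totals moved the glycolysis median to -0.49 and the ribosomal protein median to -0.70. The Hox median of 0.92 turned to -0.04 over members averaging 1 CPM or more, and the cholesterol synthesis median of -0.10 to 0.05 with library totals. The other counts of genes stayed within 1.5 times, and the other list medians moved by less than 1.5-fold. No paired analysis was possible because every group has 1 library. The GFP library was sequenced deepest, so a count of 0 there limits a level more tightly than one in NeuroD2. No replicate could be left out, and the spread between cultures is not known.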

Other observations

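The genes of this paragraph were chosen by their difference in CPM, after the values were seen. Nnat, neuronatin, an imprinted gene of the developing brain, stood at 3790 CPM in NeuroD2 against 128 in GFP, within a range of 265 to 4040 CPM in the other 6 libraries. Igfbp5, an IGF-binding protein, stood at 1130 CPM against 55.3 but was higher in 3 other libraries, up to 4130 CPM. Map1b, Tubb2b and Dpysl3, of the growing axon, stood at 980, 838 and 598 CPM against 116, 116 and 70.7 CPM. Igdcc3, an immunoglobulin-family receptor, stood at 721 against 153 CPM and Dbn1, drebrin, of dendritic spines, at 529 against 124 CPM. On the lower side Nid2, a basement membrane protein, was at 80.1 against 429 CPM, Cald1, caldesmon, at 183 against 734 CPM and Rbpms2, an RNA-binding protein of smooth muscle, at 53.6 against 287 CPM. Lars2, whose 8 levels are given above, was also among the largest differences.

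In 9 genes the NeuroD2 library lay at least 4-fold above each of the other 7 libraries on the scale of CPM + 0.5, again picked for that pattern after the values were seen. Foxa2, of endoderm and floor plate, stood at 12 CPM against at most 0.721 CPM elsewhere. Nkx6-1 stood at 144 CPM against at most 23.7, and Pax2, of spinal interneurons, kidney and the midbrain border, at 19.5 CPM against at most 4.48. Kirrel2, an immunoglobulin-family adhesion protein, stood at 31.1 CPM against at most 4.62, and Sorcs1, a sorting receptor of neurons, at 38 CPM against at most 6.59. The others were Galnt15, Syndig1, Gdf10 and Acan, the matrix proteoglycan aggrecan, at 27.4, 12.9, 5.21 and 20.1 CPM. No gene called lower lay 4-fold below each of the other 7.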
